A study of Mus musculus with 6 samples.

Results

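Collagens, basement membrane proteins, proteoglycans, matricellular proteins and the enzymes that crosslink or digest them were followed in mouse liver and liver tumour. The family comprises 45 named genes, and a gene was taken as measured when a non-control probe carried its symbol in the probe description, or an accession that maps to that symbol. By this rule 31 of the 45 genes were on the array, with 32 probes among the 20868 probes of the array, and all 31 passed the filter on dim probes. The other 14 genes were found only through the protein name written in the probe description (15 probes). They also passed the filter, and they are given here as described genes, apart from the counts over the 31. Where a gene had more than 1 probe, its brightest probe was used.

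The study sought genes that depend on the nuclear receptor CAR (constitutive androstane receptor, encoded by Nr1i3) and are induced while liver tumours develop. Total liver RNA came from mice of the C3H/HeNCrlBR(C3He) background at 39 weeks of age. All mice had received diethylnitrosamine (DEN), a carcinogen that starts liver tumours. There were 4 conditions. Wild-type (WT) mice had DEN and then phenobarbital (PB, a tumour promoter given in drinking water), and both their liver and their tumours were sampled. CAR-knockout (CAR-KO) mice had DEN either with PB or without it, and only their liver was sampled. They were set against each other on 6 Agilent 2-colour arrays, as 3 dye-swapped pairs of 2 arrays: WT over CAR-KO liver (both DEN and PB), CAR-KO liver with PB over CAR-KO liver without PB, and WT tumour over CAR-KO liver (both DEN and PB). The sources used here do not say how many animals gave each RNA, whether RNA was pooled, or whether both arrays of a pair carried the same extracts. The p-values therefore rest on how far dye-swapped arrays differ, and that spread may be technical. No WT group without PB and no untreated liver was analysed here.

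The extracellular matrix is the protein scaffold between cells. Fibrillar collagens give it tensile strength, and collagen IV, laminins, nidogen and perlecan form the sheet-like basement membrane. Matricellular proteins such as osteonectin act in the matrix without being part of its scaffold. In liver the space between hepatocytes and sinusoidal endothelium holds little fibrillar matrix, hepatic stellate cells and portal fibroblasts make most of the collagen in fibrosis, and hepatocytes themselves secrete the plasma proteins fibronectin and vitronectin.

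On 5 arrays the median local background was 53 to 62 intensity units. The second tumour array, read by another version of the scanner software (7.5.1 in place of 7.1.1), had 288 in Cy3 and 299 in Cy5. That array is a batch of 1 and cannot be told apart from its place in the pair. Between the 2 arrays of a pair, the log2 ratios over all tested probes, turned to the same direction, had Pearson correlations of 0.0294 (WT over CAR-KO liver), -0.347 (PB) and 0.391 (tumour) across probes. Of the 45 matrix genes, 30 had the same sign on both arrays in the tumour pair, 22 in the PB pair, and 24 of the 44 measured on both arrays in the WT over CAR-KO pair. The share of all probes with the same sign is not given here, so these counts do not set the family apart. The hepatocyte genes Ahsg (fetuin A) and Trf (transferrin) were well above background in all channels, in the tumour channels too, with Ahsg at 40650 and 49560 there. Signals of a channel are given after background correction with an added offset of 50, loess and between-array scaling, so a value near 60 is close to that offset. Where channels of 1 condition are given as above or below those of others, the share of all probes with such separation was not counted. Ratios and signals are of bulk RNA, in which fewer cells of a type and less RNA per cell cannot be told apart.

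WT tumour over CAR-KO liver was the comparison in which matrix genes passed the test. Sparc (osteonectin, a collagen-binding matricellular protein) and Nid1 (nidogen 1, which links laminin to collagen IV in basement membrane) rose in tumour over CAR-KO liver. Dcn (decorin, a small proteoglycan that binds collagen fibrils) fell. Tumour and CAR genotype differ together in this comparison, so their parts in a rise or fall cannot be told apart. The remaining 28 of the 31 genes and all 14 described genes did not pass (limma, 2-sided, threshold 0.05 after Benjamini-Hochberg adjustment across all 20744 probes). Among all probes tested 2.53% were called higher and 0.839% lower, against 2 and 1 of the 31 matrix genes, so counts this small do not set the family apart. At an unadjusted p under 0.05 there were 10 of the 31 genes and 5 of the 14 described genes, beside 23.4% of all probes. The median log2 ratio of the 31 genes was -0.05, with 14 above 0 and 17 below 0, and that of all probes was -0.0057.

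Sparc (probe A_51_P431087) had normalised signals of 273.3 and 325.4 in the tumour channels. On the same arrays CAR-KO liver gave 95.96 and 172.6, and over all 6 CAR-KO channels with PB the range was 95.96 to 172.6. Both tumour channels were above every liver channel, WT liver (158.8 and 159.1) and CAR-KO liver without PB (117.6 and 168.2) included. The log2 ratio of tumour over CAR-KO liver was 1.21 ± 0.19 (SE; 1.51 and 0.91 on the 2 arrays, limma adjusted p = 0.0173), a 2.32-fold difference.

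Nid1 (probe A_51_P339943) gave 287.2 and 359.6 in tumour, against 191.0 and 144.7 in CAR-KO liver on the same arrays. Its other liver channels lay between 122.4 and 183.0, so the tumour channels again stood clear of all of them. The log2 ratio was 0.95 ± 0.18 (0.59 and 1.31 on the 2 arrays, limma adjusted p = 0.0364), a 1.93-fold difference.

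Dcn (probe A_51_P334104) showed the opposite order. Its tumour signals were 293.2 and 301.3, and those of CAR-KO liver on the same arrays were 590.0 and 955.0. WT liver gave 463.8 and 341.9, CAR-KO liver without PB 775.1 and 567.2, and the 6 CAR-KO channels with PB ran from 575.1 to 955.0 with a median of 596.7. Each channel of WT tissue, liver or tumour, was below each channel of CAR-KO liver. The log2 ratio of tumour over CAR-KO liver was -1.34 ± 0.20 (-1.01 and -1.66 on the 2 arrays, limma adjusted p = 0.0159).

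**Figure D1:**
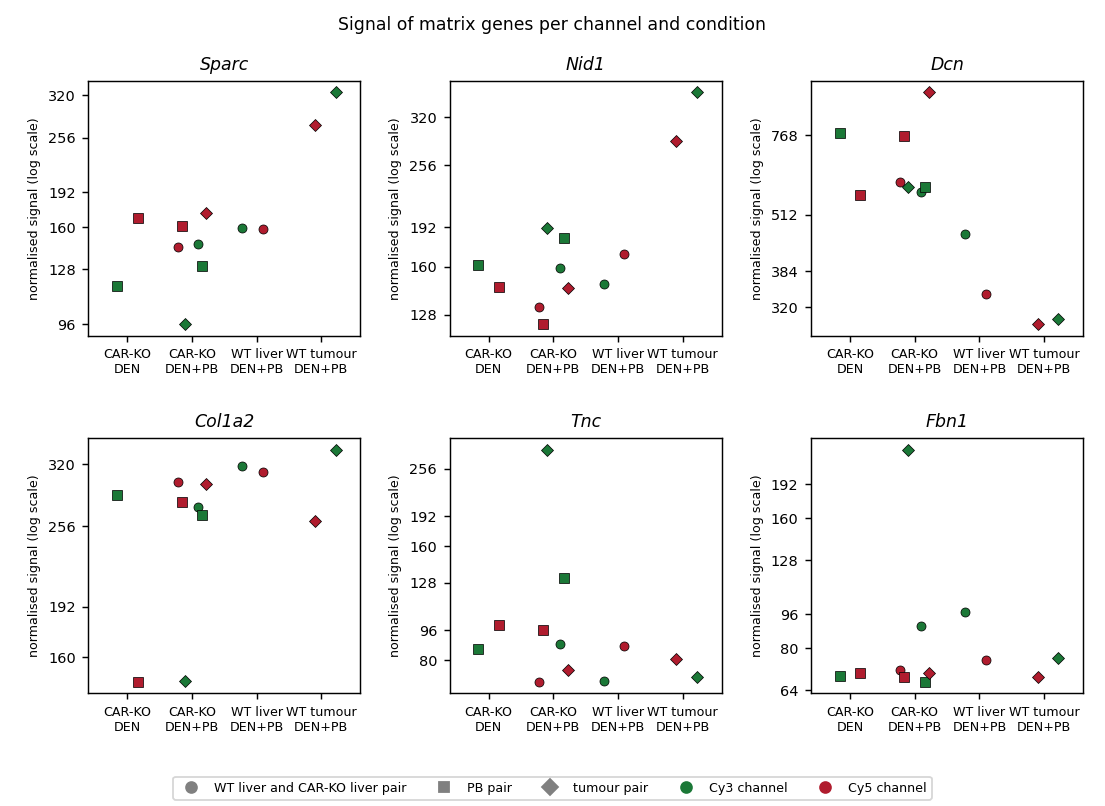
Normalised signal (log axis) of 6 matrix genes in each channel of the 6 arrays, by condition. Symbols give the array pair and colours the dye. Sparc and Nid1 lie highest in the 2 WT tumour channels, Dcn lies lowest there, and Tnc and Fbn1 each have 1 high CAR-KO channel, at 287.3 and 231.0, on array 1 of the tumour pair.

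The direction of these 3 genes was the same under all 17 alternative settings tried, but the calls were not. None of them was called with the processed log ratios of the scanner software, with array weights, with the tumour pair fitted alone, or without either array of the PB pair, while median centring called 10 of the 31 genes (5 higher, 5 lower) beside 19.9% of all probes. Leaving out array 2 of the tumour pair called 12 (4 higher, 8 lower) beside 22.7% of all probes.

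The promoters of both genes that rose are shown so that their sequence can be read beside the signals, as 300 bases on the strand of the gene from the RefSeq table of build GRCm38.p6, which held windows for 30 of the 45 genes. Capitals mark matches on either strand. The motifs searched were the CCAAT box (CCAAT), the GC box (GGGCGG), the TATA box (TATAAA) and the AP-1 motif (TGANTCA), and the matches shown do not overlap. The Nid1 window is chr13:13437352-13437651 on the plus strand and the Sparc window is chr11:55420031-55420330 on the minus strand.
Nid1: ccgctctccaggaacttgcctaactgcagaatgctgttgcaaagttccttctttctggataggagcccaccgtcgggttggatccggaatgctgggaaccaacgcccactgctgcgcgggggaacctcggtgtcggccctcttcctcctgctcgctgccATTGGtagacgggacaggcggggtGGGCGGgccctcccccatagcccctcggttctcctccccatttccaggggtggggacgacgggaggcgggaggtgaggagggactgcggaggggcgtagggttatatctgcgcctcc
Sparc: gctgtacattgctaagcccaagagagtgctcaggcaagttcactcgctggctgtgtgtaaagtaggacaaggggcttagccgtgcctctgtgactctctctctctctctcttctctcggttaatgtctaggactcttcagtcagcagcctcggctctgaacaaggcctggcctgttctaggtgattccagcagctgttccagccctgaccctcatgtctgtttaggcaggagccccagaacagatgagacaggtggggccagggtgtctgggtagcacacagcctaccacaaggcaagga
The Nid1 window held CCAAT on the opposite strand and GGGCGG on its own strand, and none of the 4 motifs was found in the Sparc window. Of 32851 windows of this length in the table, 37.4% held CCAAT, 35.7% GGGCGG, 13.6% TATAAA and 7.81% TGANTCA. A match is a description of these letters only.

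Among the fibrillar collagens no gene passed the test in tumour over CAR-KO liver. Collagen I, built from the chains of Col1a1 and Col1a2, and collagen III, encoded by Col3a1, are the main collagens of scar. Col1a2 had a log2 ratio of 0.50 ± 0.25 (0.83 and 0.18), and the described genes Col3a1 and Col1a1 had 0.50 ± 0.15 (0.64 and 0.35) and 0.46 ± 0.15 (0.51 and 0.41), with limma adjusted p values of 0.128 and 0.142. Col5a1, a chain of collagen V that regulates fibril diameter, had 0.21 ± 0.17 and its partner Col5a2 had 0.00 ± 0.17. The group's median was 0.46 with all 5 values above 0, but without array 1 of the tumour pair the median was -0.02. On that array the CAR-KO channel of Col1a2 read 146.9, while the other 5 CAR-KO channels with PB read 266.5 to 299.8. The Col1a2 tumour channels (260.8 and 337.4) lay on either side of the range of those 5 channels.

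Collagen VI forms beaded filaments around cells, and collagen XIV binds fibril surfaces. Of this group, Col6a1 had a log2 ratio of 0.12 ± 0.17, and the described genes Col6a2, Col6a3 and Col14a1 had -0.03 ± 0.15, 0.17 ± 0.16 and 0.09 ± 0.17. None was called. The 2 described probes of Col6a3 disagreed in sign, since the dimmer one had -0.33 ± 0.17.

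In the basement membrane group 1 of 10 genes, Nid1, was called higher and none was called lower. Col4a1 and the described gene Col4a2, the chains of the common collagen IV, had log2 ratios of 0.10 ± 0.17 and 0.07 ± 0.23, and for Col4a2 the 2 arrays gave -0.57 and 0.71. Col15a1, a collagen at the border between basement membrane and stroma, had -0.82 ± 0.24 (-1.38 and -0.25, limma adjusted p = 0.113). Its CAR-KO channel on array 1 stood alone at 196.7, with the 5 others from 70.04 to 98.04. Col18a1, which carries endostatin and is abundant in hepatocytes, had -0.30 ± 0.17.

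The laminin chains did not share a direction. The described genes Lamc1, Lama2 and Lama4 had log2 ratios of 0.43 ± 0.17, 0.35 ± 0.16 and 0.14 ± 0.15, and the described gene Lamb1 had -0.51 ± 0.16 (-0.92 and -0.10). Hspg2 (perlecan, a heparan sulphate proteoglycan) had 0.27 ± 0.15, and its second, dimmer probe had 0.25 ± 0.20. None of these passed the test.

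Of the small leucine-rich proteoglycans, Dcn fell and the others did not pass. Bgn (biglycan), a close relative of decorin, had a log2 ratio of -0.16 ± 0.17 (-0.40 and 0.09), and the described gene Lum (lumican) had -0.31 ± 0.16 (-0.13 and -0.50). The fall in Dcn was thus not matched by a call in either relative, and the difference between the genes was not tested.

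Elastic fibre genes had 1 value above 0 and 4 below 0, none called, and a median of -0.38 that became 0.02 without array 1 of the tumour pair. Fbn1 (fibrillin 1, the microfibril scaffold) had -0.82 ± 0.29, from -1.75 on array 1 and 0.11 on array 2. On array 1 the CAR-KO channel of Fbn1 read 231.0, against 67.03 to 90.22 in the 5 others. Eln (elastin) had -0.38 ± 0.20, Fbln2 -0.42 ± 0.20, Fbln1 -0.05 ± 0.20 and Fbln5 0.12 ± 0.19, the last 3 being fibulins that tie elastin to microfibrils. Of the crosslinking enzymes, Loxl1 had -0.47 ± 0.20 and Lox (lysyl oxidase) -0.12 ± 0.24.

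Apart from Sparc, the matricellular genes did not pass. Tnc (tenascin C), which appears in remodelling tissue, had a log2 ratio of -0.95 ± 0.29 (limma adjusted p = 0.126), from -1.83 on array 1 and -0.06 on array 2. Its CAR-KO channel on array 1 read 287.3, and its 2 tumour channels (80.66 and 72.53) lay within the range of the other 5 CAR-KO channels, 70.37 to 132.2. Spp1 (osteopontin) had -0.23 ± 0.20, Thbs2 -0.04 ± 0.16 and the described gene Thbs1 -0.14 ± 0.15, the last 2 being thrombospondins that restrain vessel growth. The described gene Mgp (matrix Gla protein, an inhibitor of calcification) had 0.47 ± 0.16 (0.78 and 0.16).

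No gene of matrix breakdown was called. Mmp2 (gelatinase A) had a log2 ratio of 0.54 ± 0.15 (0.37 and 0.71, limma adjusted p = 0.112), and its tumour signals of 620.7 and 819.1 were above all 10 liver channels, which ran from 345.5 to 579.4. Mmp14, the membrane protease that activates gelatinase A, had 0.38 ± 0.15 (0.37 and 0.40, limma adjusted p = 0.184). Timp3, a metalloproteinase inhibitor bound to the matrix, had 0.59 ± 0.18 (0.83 and 0.35, limma adjusted p = 0.125), and its tumour signals of 258.5 and 269.4 were above every liver channel too (highest 237.3). Mmp9 had 0.06 ± 0.15, Mmp12 -0.18 ± 0.16, Mmp13 -0.10 ± 0.24 (-0.73 and 0.53), Timp1 -0.13 ± 0.16 and Timp2 0.08 ± 0.16. Both the protease Mmp2 and the inhibitor Timp3 therefore had positive values on both arrays without passing the test over all probes. The share of all probes with tumour channels above every liver channel was not counted, so their separation is a description only. Vtn (vitronectin) and the described gene Fn1 (fibronectin), the plasma adhesion proteins, had -0.41 ± 0.35 and -0.03 ± 0.27.

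**Figure D2:**
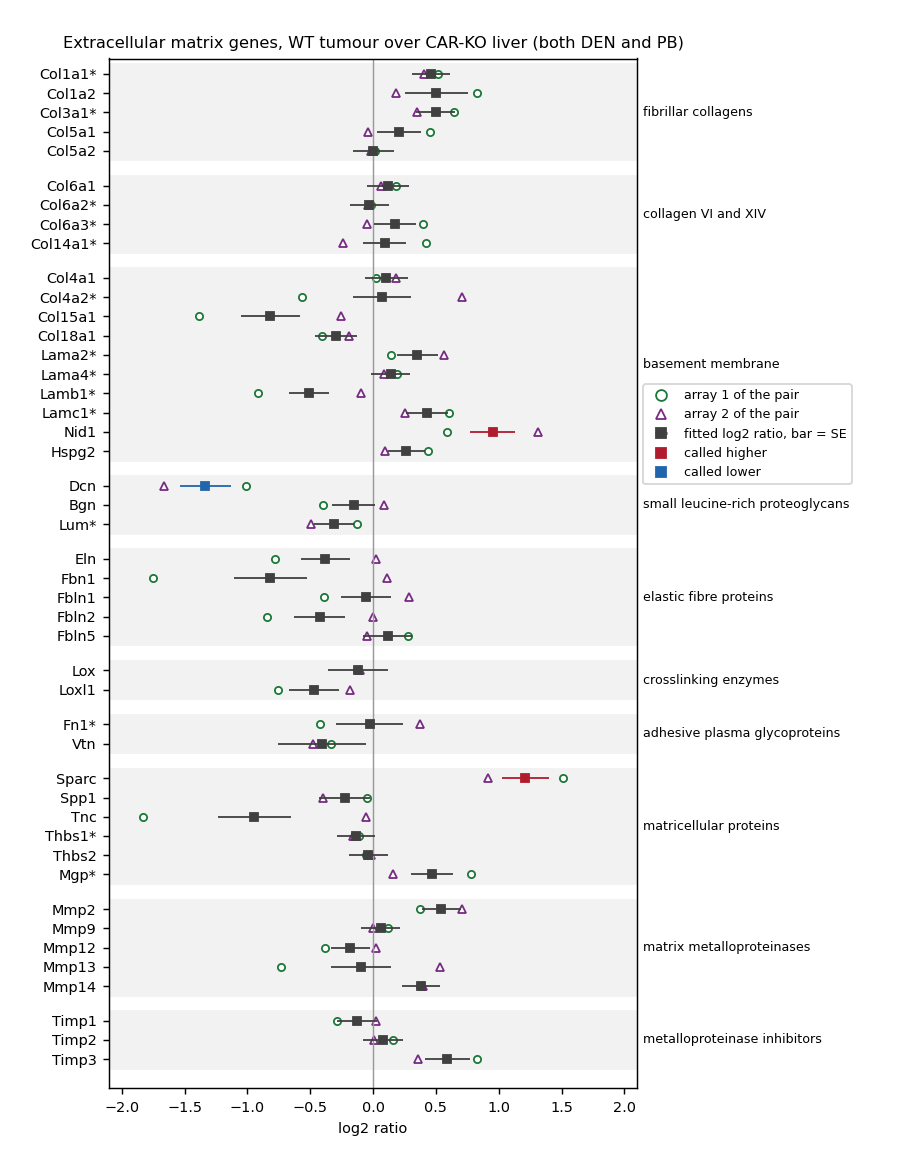
Log2 ratio of WT tumour over CAR-KO liver (x axis) for the 45 matrix genes (y axis, grouped by role; an asterisk marks the 14 described genes). Open symbols are the 2 arrays, squares with bars the limma estimate ± SE. Sparc and Nid1 lie at 1.21 and 0.95 and Dcn at -1.34, and Tnc, Fbn1 and Col15a1 have array 1 far below array 2.

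WT and CAR-KO liver, each with DEN and PB, were compared to ask which genes depend on CAR when both genotypes receive the promoter. No matrix gene was called, among the 31 or the 14 described genes. Over all probes 0.0916% were called higher and 0.00964% lower. At an unadjusted p under 0.05 there was 1 of the 31 genes, Dcn, beside 2.27% of all probes. The values split evenly, with 16 above 0 and 15 below 0 and a median of 0.02.

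Dcn had the lowest value, -0.56 ± 0.20 (-0.38 and -0.75 on the 2 arrays, limma adjusted p = 1). WT liver read 463.8 and 341.9 and CAR-KO liver 603.4 and 575.1 on the same arrays, WT liver being lower on each. With 2 channels a side a lack of overlap says little, and its share over all probes was not counted. Lox had the highest value at 0.51 ± 0.24, which came from array 1 (0.97, against 0.05 on array 2), where WT liver read 144.6 and CAR-KO liver 74.01. Mmp14 had 0.35 ± 0.15 with close arrays (0.38 and 0.31, limma adjusted p = 1). Col1a2 had 0.13 ± 0.25, Vtn -0.26 ± 0.35 and Spp1 -0.20 ± 0.20.

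By role, the fibrillar collagens ranged from -0.14 (Col5a1) to 0.13 and the basement membrane genes from -0.12 (Col18a1) to 0.32 (the described gene Lamb1, 0.62 and 0.02 on the arrays). Sparc and Nid1, called in tumour over CAR-KO liver, had 0.13 ± 0.19 and 0.13 ± 0.18 in WT over CAR-KO liver. The described gene Lum had no ratio on array 1, where its spot carried an outlier flag, and -0.048 on array 2. Its fitted value of -0.25 ± 0.26 also draws on the dye effect estimated from the other pairs. In 3 cases a condition was not well above background on either array. With the dim condition held at or above the lowest signal well above background, CAR-KO over WT liver came to 1.01-fold for Lama2. For Timp1 it came to 1.02-fold. Their log2 ratios of WT over CAR-KO liver, -0.01 ± 0.16 and -0.11 ± 0.16, were smaller than the SE, so no difference is shown. No fold is given for Thbs2, whose undetected condition had the higher signal.

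CAR-KO liver with PB was set against CAR-KO liver without PB to show what PB does when CAR is missing. No matrix gene was called in either direction, and 0% of all probes were called. At an unadjusted p under 0.05 there were 1 of the 31 genes (Vtn) and 1 of the 14 described genes (Fn1), beside 2.72% of all probes. The median of the 31 genes was 0.04, with 17 above 0 and 14 below 0.

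The 2 plasma adhesion proteins had the largest values, and each rested on 1 array. Vtn had 1.04 ± 0.35, from 0.06 on array 1 and 2.03 on array 2 (limma adjusted p = 1). Its signal without PB was 14230 on array 1 and 3880 on array 2, while the 2 channels with PB read 14840 and 15820. Fn1 had 0.77 ± 0.27, from -0.29 and 1.84, with 490.2 and 103.2 without PB against 399.7 and 369.0 with PB. On the same array 2 the Cy5 channel without PB was also low for Col1a2 (146.7, against 286.3 on array 1). Among the 5 tested hepatocyte markers, the channels without PB lay far apart for Trf (2728 and 21290) and Apoa1 (1086 and 9098). They lay closer together for Ahsg (41960 and 52580), Ttr (841.9 and 858.8) and Hnf4a (564.7 and 900.3). The part of this in the result was not tested.

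Other values with the same sign on both arrays were smaller. Fbln5 had 0.32 ± 0.19 and Col18a1 0.31 ± 0.17, while Mmp12 (macrophage elastase) had -0.22 ± 0.16 and Fbln2 -0.10 ± 0.20. Thbs2 had -0.16 ± 0.16, with each condition well above background on array 1 alone. Dcn, Sparc and Nid1, the 3 genes called in tumour over CAR-KO liver, had 0.02 ± 0.20, 0.04 ± 0.19 and -0.03 ± 0.18. None of these fitted values was larger than its SE. The 2 arrays disagreed in sign for each, with 0.45 and -0.37 for Sparc and -0.40 and 0.33 for Nid1. Dcn had -0.02 and 0.06. The means near 0 for Sparc and Nid1 therefore do not show an absence of change. For Col1a1, Mmp13 and Lama2 the dimmer condition was not well above background on either array. Bounded in the same way, the fold with PB over without was 1.02 for Col1a1 and 1.01 for Mmp13. For Lama2 the fold without PB over with was 1.08. Their log2 ratios of 0.09 ± 0.15, 0.06 ± 0.24 and -0.11 ± 0.16 were smaller than the SE, so no difference is shown. No fold is given for Fbn1, whose undetected condition had the higher signal, or for Timp1, which was not well above background in either condition.

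**Figure D3:**
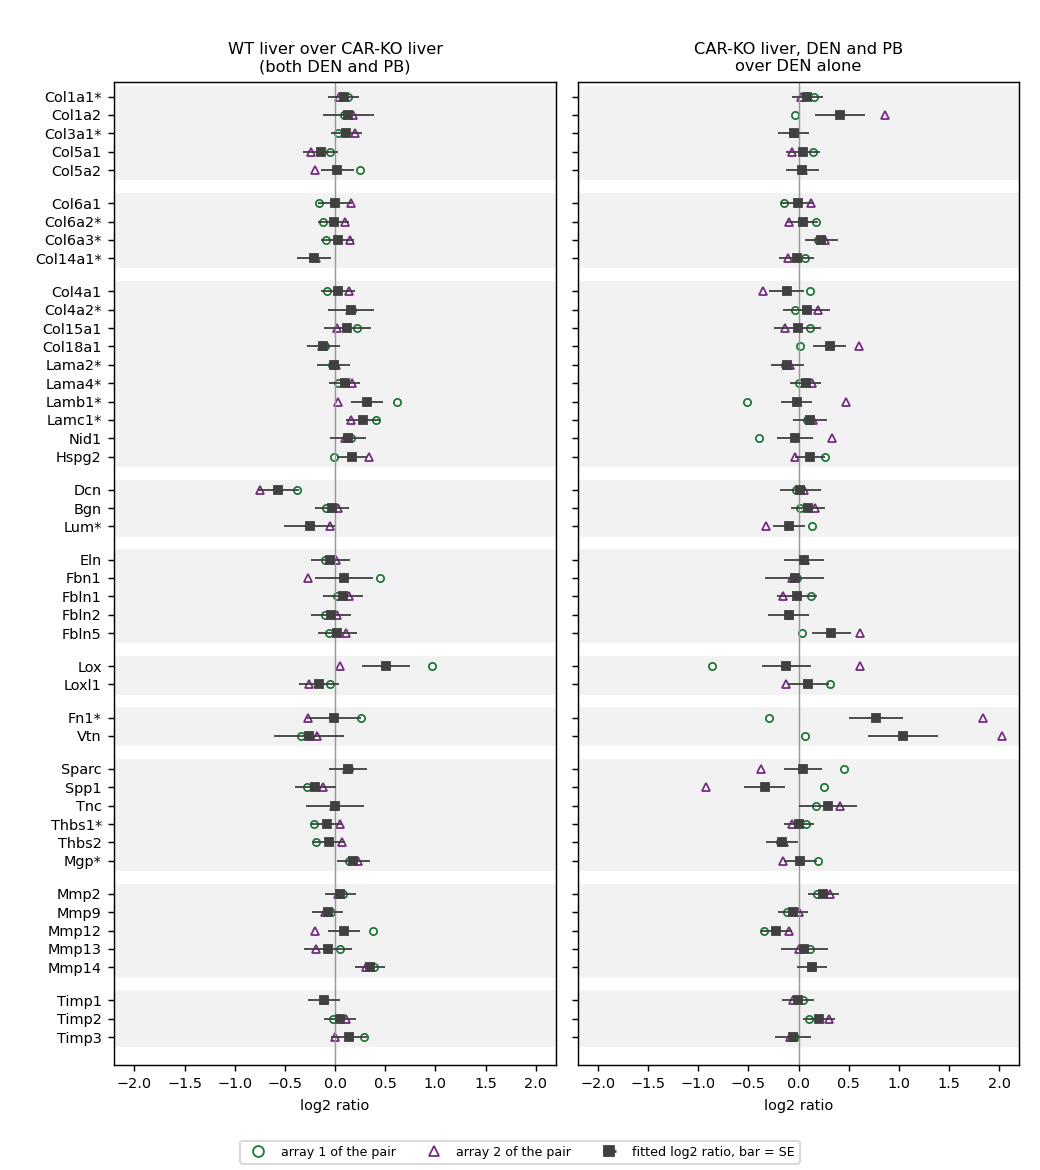
Log2 ratio (x axis) of the 45 matrix genes (y axis, in the same order as in the tumour plot, described genes with an asterisk) in WT over CAR-KO liver (left) and in CAR-KO liver with over without PB (right). Open symbols are the 2 arrays, squares with bars the limma estimate ± SE. No gene was called, Dcn lies lowest on the left at -0.56, and Vtn and Fn1 on the right are drawn out by array 2.

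Tumour and WT liver were never on the same array, and their comparison subtracts one ratio to CAR-KO liver from the other, so it shares the CAR-KO arm with both. No matrix gene was called in either direction, and 0% of all probes were called. At an unadjusted p under 0.05 there were 4 of the 31 genes (Sparc, Nid1, Dcn and Col15a1) and 1 of the 14 described genes (Lamb1), beside 8.37% of all probes. Sparc had 1.09 ± 0.27 (limma adjusted p = 0.372) and Nid1 0.82 ± 0.25 (adjusted p = 0.536), and the signals in tumour were above those of WT liver for both. Dcn had -0.77 ± 0.29 (adjusted p = 0.584), with 293.2 and 301.3 in tumour below 341.9 and 463.8 in WT liver. Mmp2 had 0.49 ± 0.22, and the lowest values were those of Tnc (-0.94 ± 0.41), Col15a1 (-0.94 ± 0.33), Fbn1 (-0.91 ± 0.41) and Lamb1 (-0.83 ± 0.22). Tumour and WT liver signals overlapped for Tnc (72.53 and 80.66, against 70.52 and 87.43) and Fbn1 (68.66 and 75.95, against 75 and 97.08). Those of Lamb1 overlapped too (65.76 and 80.82, against 68.17 and 109.4). For Col15a1 tumour gave 75.47 and 82.18, and WT liver 84.71 and 99.81. On array 1 of the tumour pair the CAR-KO channel read 287.3 for Tnc, 231.0 for Fbn1 and 196.7 for Col15a1. That channel enters their ratios. Leaving out array 2 of the tumour pair gave 4 calls among the 31 genes in this comparison (1 higher, 3 lower), beside 10.4% of all probes.

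Other genes that make, bind, cut or sense matrix were read in the same fits from 5 lists. In tumour over CAR-KO liver 4 of their 112 tested genes rose and none fell, beside 2.53% of all probes called higher and 0.839% lower. Counts this small do not set the lists apart. In the other 3 comparisons none of these genes was called. Of 48 other matrix proteins 1 rose, Col8a1, a short-chain collagen of vessel walls and membranes, with 1.05 ± 0.19 (limma adjusted p = 0.0304). Of 20 other proteases and inhibitors 2 rose: Ctss (cathepsin S, an elastin-cutting protease of antigen-presenting cells) with 1.14 ± 0.15 (adjusted p = 0.00989) and Plat (tissue plasminogen activator) with 0.87 ± 0.15 (adjusted p = 0.0283). Of 15 integrins and matrix receptors 1 rose, Ddr1, a collagen-binding receptor kinase, with 0.76 ± 0.15 (adjusted p = 0.0425), and 12 of the 15 had values below 0. The count of 4 became 1 when any array of the WT over CAR-KO pair or of the PB pair was left out, 22 without array 2 of the tumour pair (where 22.7% of all probes were called) and 0 with the scanner software's ratios.

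None of the 13 collagen-modifying enzymes and chaperones passed, with a median of -0.07 and a range from -0.48 to 0.41. None of the 16 genes of TGF-beta signalling, the pathway that drives collagen synthesis in stellate cells, passed either, with a range from -0.54 to 0.85. The highest of these was Tgif1, a repressor of that pathway (0.85 ± 0.19, limma adjusted p = 0.0574).

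Markers of the cells that could supply matrix RNA were read beside these results, and their part in them was not tested. Of 9 tested stellate cell markers 6 had values below 0 in tumour over CAR-KO liver, and the median of the list was -0.16. The other 3 had values above 0, and 1 of them was called higher. Of 11 fibroblast and smooth muscle markers 7 had values below 0, and the median of the list was -0.18. Of these fibroblast and smooth muscle markers only 1 was called, Entpd2 of portal fibroblasts, which rose (1.32 ± 0.16, limma adjusted p = 0.00577). The summed signal of this list was 5881 to 8930 in tumour and 6981 to 10920 in CAR-KO liver with PB. Most of it came from 1 gene, Tagln, with 3794 to 6503 in tumour and 4831 to 8770 in CAR-KO liver with PB. Of 9 cholangiocyte markers 1 rose, Krt19 (1.13 ± 0.16, adjusted p = 0.0135), with sums of 1550 to 1654 and 1467 to 2182. No marker of endothelium (10 tested), macrophages (10), lymphocytes (8), neutrophils (7), adipocytes (5), mesothelium (1) or hepatocytes (5) was called. In tumour 1 endothelial marker was well above background in neither channel, and every other tested marker was above it in at least 1 channel.

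Of 6 tested skeletal muscle genes, 3 fell in tumour over CAR-KO liver: Tnnc2 (fast troponin C) by 1.83, Mylpf (fast myosin light chain) by 1.25 and Tnni2 (fast troponin I) by 1.01 on the log2 scale, with limma adjusted p values of 0.00163, 0.00612 and 0.0335. Ckm, Tnnt3 and Atp2a1, the other 3, had log2 ratios of -0.05, 0.03 and 0.05, and their signals in PB-treated CAR-KO liver overlapped those of the other conditions. The summed signal of the list was 966.1 to 1474 in the 6 channels of CAR-KO liver with PB, against 573.3 to 619.9 in tumour, 646.4 to 657.1 in WT liver and 658.4 to 670.6 in CAR-KO liver without PB, and Tnnc2 alone gave 365.2 to 678.7 of it in PB-treated CAR-KO liver. Tnnc2 also fell in WT over CAR-KO liver by 1.78 (adjusted p = 0.00746) and had 1.78 ± 0.15 with PB over without PB (adjusted p = 0.0937). The part of these genes in the values of matrix genes was not tested.

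**Figure D4:**
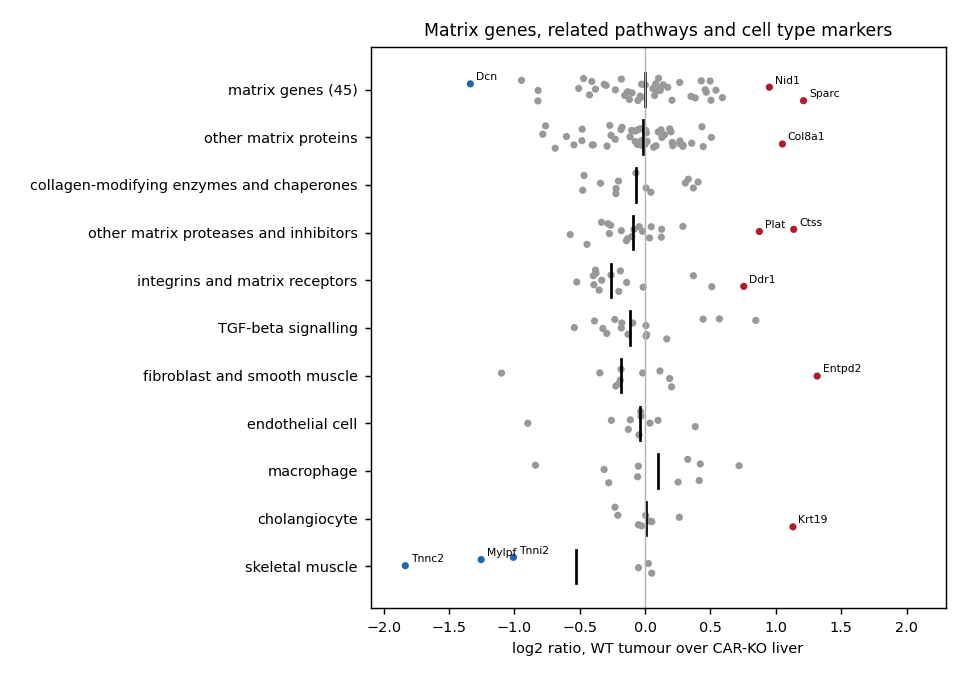
Log2 ratio of WT tumour over CAR-KO liver (x axis) for the 45 matrix genes, 5 related gene lists and 5 marker lists (y axis). Each point is 1 gene, red for called higher and blue for called lower, and black bars are list medians. Called genes are named: most lie above 0, while Dcn and 3 skeletal muscle genes lie below 0.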

How the data were processed

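Total liver RNA was hybridised to 6 Agilent 2-colour arrays. The deposited files, per the file headers, hold mean and local background intensity per spot, and spot flags of other kinds (well above background, saturated, outlier). The deposited log10 ratio of red over green is the authors' value, made with Agilent Feature Extraction, 7.1.1 or 7.5.1 per the file headers and 7.5 per the submitters' processing notes. The deposited value table equals it, with a largest difference of 0. Its p-value per spot was not used. Per the labels, Cy3 and Cy5 were swapped within each pair.

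From the intensities, log2 ratios were computed in R 4.3.3 with limma 3.58.1: normexp background correction (offset 50), loess within each array, outlier spots set to missing, spots of a probe averaged. Of 22393 spots 1075 were controls. Tested were the 20744 probes with either channel flagged well above background on 2 or more arrays. All 6 arrays were fitted together with a dye effect per probe, which left 2 residual and 5.48 prior degrees of freedom. Every SE is limma's, with 2 arrays per direct comparison, and the number of arrays limits the precision. The fitting code was run on simulated data with known changes and with independent, equal spread on all 6 arrays. The real arrays differ in spread (array weights from 0.486 to 1.77), so that run checks the code and not the calls. Channel signals were scaled between arrays (Aquantile), and they stay open to dye bias.

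Symbols came from accessions and from current or older symbols in descriptions (10068 of 20868 probes, 9903 genes). Those of the 14 described genes came from the protein name alone. The members and lists were chosen with earlier results of these data known. Named were all called genes and, per comparison, the 3 highest and 3 lowest of the 31 with the same sign on both arrays (in the indirect comparison, of all 31), with every other member in its role group. Of pathway and marker lists, up to 4 called genes were named. Ahsg, Trf, Apoa1, Ttr, Hnf4a, Tgif1, Tagln, and levels of members outside this rule, were chosen after their values were seen. Alternatives were the background correction, the normalisation, the scanner software's ratios, array weights, the dye effect, the filter, the pair alone, the mean over probes and each array left out. The results of 2 listed genes are not reported here.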

Additional observations from a re-analysis of the deposited data

Results flagged for a closer look

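PB-treated CAR-KO liver was read in 6 channels, and for 5 of the 45 matrix genes (11.1%) 1 channel stood far from the other 5. Chance alone gives about 1 in 20 such groups when the 6 values are independent and normal. These channels differ in pair, dye and array background, so that rate need not hold and no excess is read from the share. In 4 of the 5 it was the Cy3 channel of array 1 of the tumour pair. There Fbn1 read 231.0 (the others 67.03 to 90.22), Col15a1 196.7 (70.04 to 98.04), Col1a2 146.9 (266.5 to 299.8) and Col14a1 113.7 (200.3 to 230.0). Bgn read 185.7 in the Cy5 channel of array 2 of that pair (288.0 to 346.1 in the others). The cause was not tested.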

How the results depend on the processing

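Each ratio sets 2 channels of the same array against each other. No paired analysis was possible because the labels number no replicates, so no replicate block across the groups could be formed. In tumour over CAR-KO liver, 3 of the 31 matrix genes were called, 0 with the scanner software's ratios, 10 with median centring, 0 with array weights and 0 with the pair alone, and 0 to 12 with 1 array left out. The 3 named calls kept their direction in all 17 alternatives: the log2 ratio ran from 0.82 to 1.66 for Sparc (5 alternatives without a call), from 0.61 to 1.21 for Nid1 (10) and from -1.78 to -0.90 for Dcn (5). Over all probes the share of higher calls was 75.1%, 57.3% with median centring, 85.5% with the pair alone and 38.2% without array 2 of the tumour pair, where 4707 probes were called in place of 698. The other matrix lists, whose alternatives were chosen after seeing the data, had 4 calls: 2 with local background subtracted, 0 with the scanner software's ratios, 15 with median centring, 0 with array weights, 2 with no dye effect, 0 with the pair alone, and 1 to 22 with 1 array left out. In tumour over WT liver, leaving out 1 array gave 0 to 4 calls among the 31 genes and 0 to 7 in the other lists. In WT over CAR-KO liver and in the PB comparison the counts stayed at 0 in every alternative run. Among the named genes, those that changed sign with 1 array left out, none of them called, were Vtn (-0.80 to 0.28) and Spp1 (-0.50 to 0.10) in WT over CAR-KO liver and Vtn (-0.015 to 2.103), Fbln5 (-0.087 to 0.74) and Fbln2 (-0.28 to 0.079) in the PB comparison. The cause was not tested.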
